A study of Mus musculus with 8 samples.

Results

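The 10 circadian clock genes described here were Arntl, Clock, Npas2, Per1, Per2, Per3, Cry1, Cry2, Nr1d1 and Dbp, taken by symbol from the 30387 genes of the deposited table. All 10 were present and were among the 18800 genes tested, those whose 8 libraries averaged 5 normalized counts or more. RNA was sequenced from white adipocytes isolated from the epididymal (visceral) fat of mice, with 2 mice and thus 2 libraries in each of 4 groups. The groups were wild-type (WT) littermates and Ad-Yap/Taz-KO (KO) mice, each fed a standard diet (SD, called normal chow in the labels) or a high-fat diet (HFD) for 4 weeks, with feeding begun at week 5 of age according to the series' design text. A slightly later start stands in the methods, so the age is not certain. KO mice carried Adipoq-Cre with floxed alleles of Yap1 (Yap) and Wwtr1 (Taz), the coactivators that bind TEAD transcription factors. The deletion was constitutive and was directed to cells in which the adiponectin promoter drives Cre, and how completely it took place was not measured here. The design asks what the diet and the loss of YAP and TAZ each do to gene expression in adipocytes. The time of day at which the cells were collected is not given in the sources used here, so a change in the mean level of a clock gene and a change in its phase cannot be told apart.

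The circadian clock is a feedback loop of transcription that runs in almost every cell, adipocytes included. The proteins BMAL1 (encoded by Arntl) and CLOCK, or its relative NPAS2, bind E-box sequences and switch on the Per and Cry genes, whose products return to the nucleus and repress their own activators. A second loop passes through the nuclear receptors REV-ERBalpha (Nr1d1) and REV-ERBbeta (Nr1d2), which repress Arntl, Clock and Npas2 at elements that the ROR receptors activate. DBP and its relatives TEF and HLF carry the rhythm to output genes through D-box sequences, and the levels of Arntl and Dbp are normally near opposite phases of the day. In white fat the clock is known to respond to the timing of meals and to high-fat feeding.

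The libraries held about 14000000 to 22300000 reads on genes, and 1 read was worth 0.795 to 1.13 normalized counts. The targeted genes followed the labels: in normalized counts, Wwtr1 was 4743 to 7121 in WT and 1957 to 2707 in KO adipocytes, and Yap1 was 2333 to 2776 and 1549 to 2068. Wwtr1 was called lower in KO on both diets and Yap1 on SD, while the Yap1 difference on HFD was -0.42 (limma, adjusted p = 0.059). The 2 WT HFD libraries were more alike than other pairs at high levels. For genes of 1000 to 5000 normalized counts, their squared difference was 5.86 times the counting variance, against 25.8 to 83.8 times in the other groups, while for genes of 5 to 20 it was 4.68 times, against 4.58 to 6.19. The results of the clock genes, of the called pathway genes and of the targeted genes were therefore also computed with the pair averaged to 1 sample, a choice made for the pathway and targeted genes after seeing the data. Both Wwtr1 calls then remained, and the Yap1 call on SD was lost (adjusted p = 0.075).

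In the WT adipocytes, HFD was accompanied by low Arntl and Npas2 and high Per2, Per3 and Dbp. The call of Per3 was lost in 7 of 12 other settings, and those of the other genes in none of them. In KO adipocytes on HFD, Arntl and Npas2 were higher than in WT, Per2, Per3 and Cry2 were lower, and Clock, Nr1d1 and Cry1 also differed. A gene was called when its adjusted p (limma, Benjamini-Hochberg over the 18800 genes) was at most 0.05 and its log2 fold change at least 0.59 in size. Between KO and WT on HFD, 8 of the 10 clock genes were called, 3 higher and 5 lower, where 32.2% of all genes tested were called (17.1% higher, 15.1% lower). Between HFD and SD in WT, 5 of 10 were called, 3 higher and 2 lower, where 18.0% of all genes were (8.74% higher, 9.22% lower). Between HFD and SD in KO, 1 of 10 was called, as higher, where 1.07% of all genes were (0.383% higher, 0.691% lower). In that comparison 5 of 10 had an unadjusted limma p under 0.05. Between KO and WT on SD, 0 of 10 were called by limma and 2 (Per3 and Nr1d1) had an unadjusted p under 0.05, where 4.71% of all genes were called (3.21% higher, 1.50% lower). The difference between the 2 diet effects, tested as the interaction of genotype and diet, was called for 4 of 10 clock genes, 2 positive and 2 negative, and for 17.4% of all genes (8.69% positive, 8.73% negative). The 4 comparisons between groups share libraries, so their counts are not independent.

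**Figure D1:**
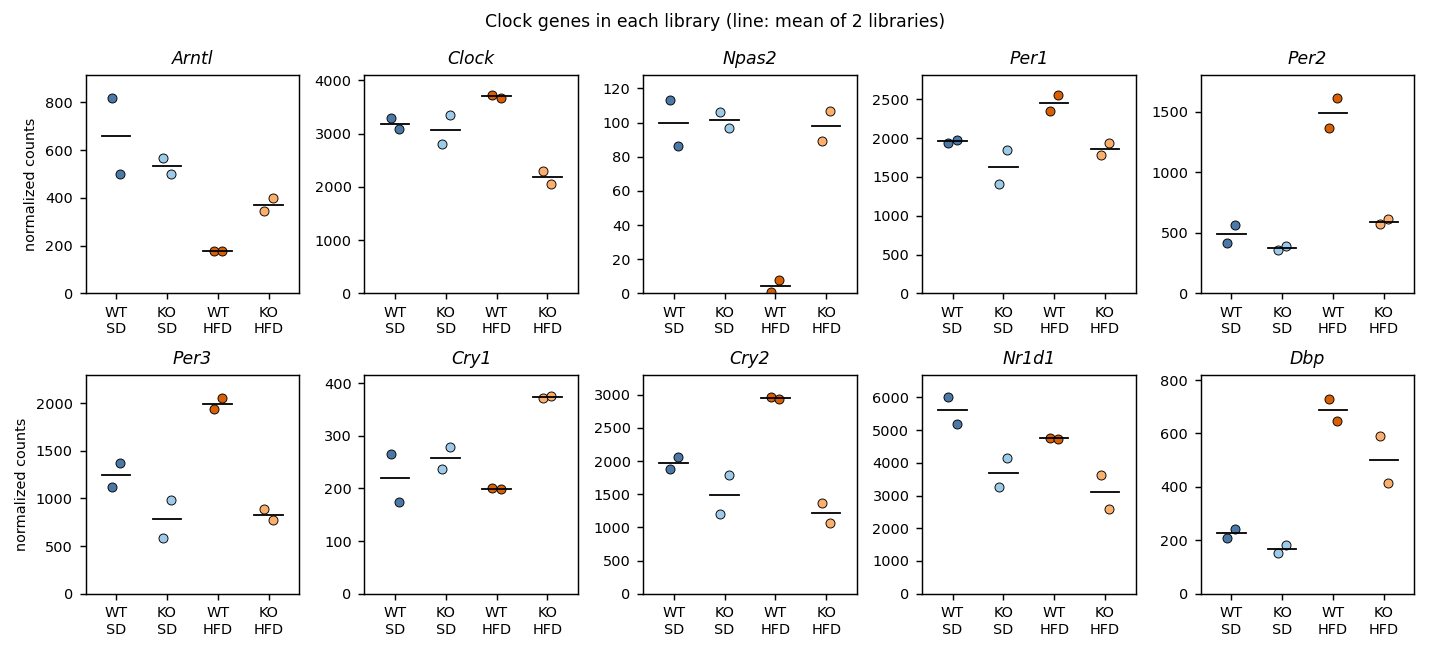
Normalized counts (vertical axes, each from 0) of the 10 clock genes in each of the 8 libraries (points), by group (horizontal axes), with the mean of 2 libraries as a line. In the WT HFD group Arntl and Npas2 sit at their lowest values and Per2, Per3, Cry2 and Dbp at their highest.

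Per length of exon, the clock genes spanned a wide range of levels. In WT SD adipocytes the mean level per kilobase of exon was 1821 normalized counts for Nr1d1, then 347.7 for Per1, 311.2 for Cry2, 232.3 for Clock and 129.8 for Per3, and none of these neighbours overlapped between libraries. Arntl (87.66), Per2 (83.67), Dbp (75.34) and Cry1 (65.87) came next, and each of these overlapped its neighbour in the order. Npas2 was lowest at 20.77 normalized counts per kilobase. The order was different in WT HFD adipocytes, where Per2 (254.3) and Dbp (230.0) stood next to Clock (269.5), all with overlapping neighbours, and Arntl fell to the ninth place at 23.66 and Npas2 to 0.9393. In KO HFD adipocytes the lowest places were again those of Arntl (49.38) and Npas2 (20.46), below Per3 (86.39). These levels per kilobase compare genes; all values that follow are normalized counts per gene.

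The windows of 250 bases before the transcription start of 4 clock genes are shown because they hold matches to motifs known from clock genes and because the 4 genes behaved differently. RefSeq (build GRCm38.p6) gave such windows for 9 of the 10 genes, 13 windows in all. Per2 had no window and was not searched. Capitals mark matches, on either strand, to the E-box CACGTG, to the related CACGTT (which reads AACGTG on the other strand) or to the D-box TTATGTAA, and each sequence is written 5′ to 3′ on the strand of its gene. Per3 is on chr4:151044666-151044915, minus strand, Per1 on chr11:69098699-69098948, plus strand, Cry1 on chr10:85185055-85185304, minus strand, and Nr1d1 on chr11:98775378-98775627, minus strand.
Per3: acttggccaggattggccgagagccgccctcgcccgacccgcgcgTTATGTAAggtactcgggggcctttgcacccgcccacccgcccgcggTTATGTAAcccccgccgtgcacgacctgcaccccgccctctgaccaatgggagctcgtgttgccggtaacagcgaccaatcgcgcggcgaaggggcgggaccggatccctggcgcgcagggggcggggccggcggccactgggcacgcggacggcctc
Per1: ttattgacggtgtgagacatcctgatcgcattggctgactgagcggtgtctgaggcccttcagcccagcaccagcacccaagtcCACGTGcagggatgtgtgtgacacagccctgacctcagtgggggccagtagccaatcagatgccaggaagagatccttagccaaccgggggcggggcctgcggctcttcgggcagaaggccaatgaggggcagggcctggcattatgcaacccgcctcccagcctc
Cry1: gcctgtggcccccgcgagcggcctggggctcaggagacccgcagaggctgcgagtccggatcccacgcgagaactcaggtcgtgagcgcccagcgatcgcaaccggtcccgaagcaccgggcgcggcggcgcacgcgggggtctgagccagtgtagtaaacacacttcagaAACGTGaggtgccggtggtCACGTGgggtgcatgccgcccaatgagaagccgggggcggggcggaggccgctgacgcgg
Nr1d1: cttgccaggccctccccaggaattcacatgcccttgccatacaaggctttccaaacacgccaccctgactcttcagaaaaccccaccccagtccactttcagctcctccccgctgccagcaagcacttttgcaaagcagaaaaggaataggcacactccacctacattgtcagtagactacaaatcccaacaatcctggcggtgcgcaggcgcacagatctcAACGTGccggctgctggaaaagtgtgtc
The Per3 window held the D-box letters TTATGTAA in 2 places, 205 and 158 bases before the start, and no other clock gene's window held them, where 0.819% of 32851 RefSeq windows did. The E-box CACGTG was in the windows of Per1 and Cry1, 166 and 60 bases before their starts, and in 6.02% of all windows. CACGTT was in those of Cry1, Cry2 and Nr1d1 and in 3.85% of all windows. The other D-box spelling TTACGTAA (0.113% of windows), the ROR element cores TAGGTCA (2.23%) and TGGGTCA (3.24%), and the TEAD motif GGAATG (12.6%) matched none of the 13 windows. These matches describe the letters in the windows and were not measured as binding.

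Of the activators, Arntl (ENSMUSG00000055116, chromosome 7, 113207465 to 113314126, plus strand, GRCm38) measured 817 and 502 normalized counts in the WT SD libraries, 568 and 502 in KO SD, 178 and 178 in WT HFD and 344 and 399 in KO HFD. The 2 SD groups overlapped, the WT HFD libraries were the lowest, and the KO HFD libraries lay between them and all 4 SD libraries. Arntl was 3.58-fold lower on HFD than on SD in WT (log2 fold change -1.84, SE 0.24, adjusted p = 0.00058). It was 2.08-fold higher in KO than in WT on HFD (1.05, SE 0.24, adjusted p = 0.0046). The diet difference within KO was -0.53 (SE 0.24, adjusted p = 0.31) and was not called, and the interaction was 1.32 (SE 0.34, adjusted p = 0.021). The interaction was lost in 3 of 11 settings, the WT HFD pair as 1 sample among them, and without the first WT SD library (0.96), the second KO SD library (1.23), either WT HFD library (1.32 and 1.32) or the second KO HFD library (1.21).

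Npas2 (ENSMUSG00000026077, chromosome 1, 39193731 to 39363236, plus strand), the relative of Clock that also pairs with BMAL1, measured 113 and 86 normalized counts in WT SD, 106 and 97 in KO SD, 1 and 8 in WT HFD and 89 and 107 in KO HFD. The 6 libraries other than WT HFD thus all lay between 86 and 113, and the WT HFD pair stood alone near 0. The 9 reads of the WT HFD pair against 230 in the KO HFD pair gave a ratio of KO to WT of 22 (95% interval 11.4 to 48.8), and the 188 reads of the WT SD pair gave a ratio of SD to HFD of 22.4 (11.6 to 49.7). Both intervals cover counting error only. In the fit across all genes Npas2 was lower in WT on HFD (log2 fold change -4.55, SE 0.62, adjusted p = 0.00076), higher in KO than in WT on HFD (4.54, SE 0.62, adjusted p = 0.00015), and had an interaction of 4.50 (SE 0.88, adjusted p = 0.0079), which was lost with no filter and without the first WT SD library (4.30, adjusted p = 0.059). With so few reads in 1 group the fitted size depends on the pseudocount and ranged from 3.14 to 5.03 for KO against WT on HFD over the processing alternatives, and it was 3.45 and 5.62 without the first and the second WT HFD library. The log2 difference between diets in KO was -0.05 (95% interval -1.40 to 1.29), and that between genotypes on SD was 0.04 (-1.31 to 1.39, and -0.01 with upper-quartile scaling), so differences of over 2-fold either way lie within these intervals.

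Clock (ENSMUSG00000029238, chromosome 5, 76209868 to 76304792, minus strand) moved less. It measured 3283 and 3094 normalized counts in WT SD, 2806 and 3344 in KO SD, 3721 and 3677 in WT HFD and 2291 and 2061 in KO HFD. The KO HFD pair lay below all other libraries. Clock was 1.7-fold lower in KO than in WT on HFD (log2 fold change -0.77, SE 0.15, adjusted p = 0.0017), and its interaction was -0.71 (SE 0.21, adjusted p = 0.036). The call on HFD was lost with each library scaled to the same total (-0.38) and with quantile normalization (-0.49), and the interaction was lost in 6 of 11 settings and without either WT SD library (-0.75 and -0.67), the second KO SD library (-0.58), either WT HFD library (-0.70 and -0.72) or the second KO HFD library (-0.63). The diet difference in WT was 0.21 (adjusted p = 0.32) and changed sign, to -0.20, when each library was scaled to the same total. Arntl and Clock, whose proteins act as a pair, thus differed in opposite directions between KO and WT on HFD.

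**Figure D2:**
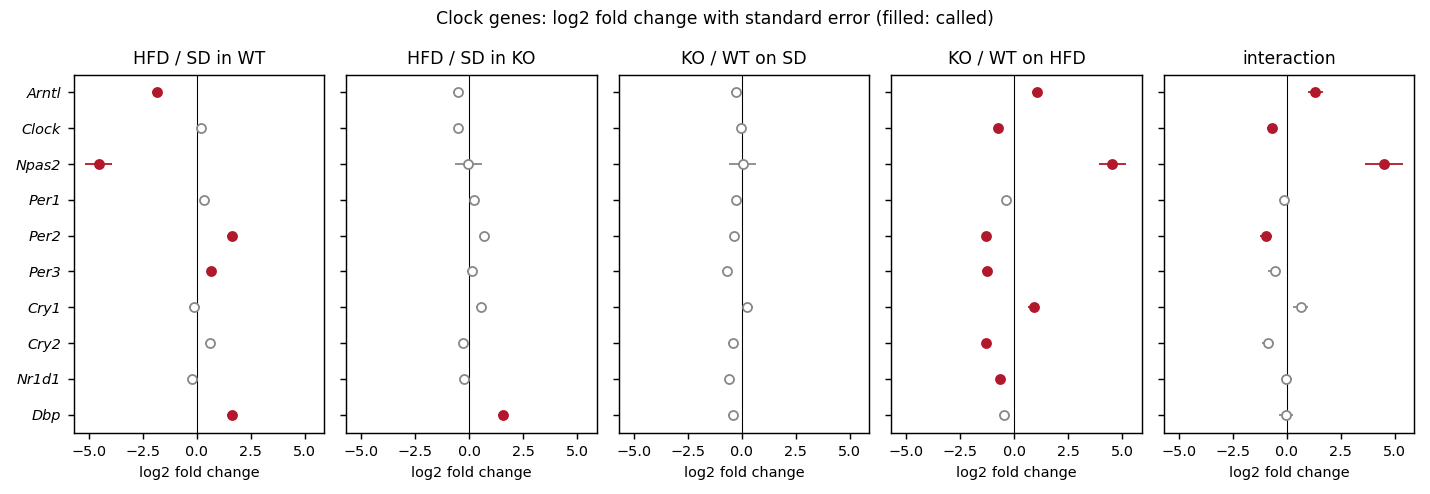
Log2 fold changes (horizontal axes) of the 10 clock genes (rows) in 4 comparisons and in the interaction of genotype and diet, with standard errors as bars (hidden where shorter than the point); filled points passed both limits of the call. Npas2 and Arntl lie left of 0 for HFD against SD in WT and right of 0 for KO against WT on HFD, and Per2 and Per3 lie the other way round.

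The Per genes encode the proteins that, with CRY, shut off the activators. Per2 (ENSMUSG00000055866, chromosome 1, 91415982 to 91459324, minus strand) measured 415 and 565 normalized counts in WT SD, 360 and 389 in KO SD, 1365 and 1613 in WT HFD and 574 and 612 in KO HFD. The WT HFD libraries were well above every other library, and no groups overlapped. Per2 was 3.06-fold higher on HFD in WT (log2 fold change 1.61, SE 0.19, adjusted p = 0.00037) and 2.5-fold lower in KO than in WT on HFD (-1.32, SE 0.19, adjusted p = 0.00025). In KO its diet difference was 0.66 (SE 0.19, adjusted p = 0.12), and the interaction was -0.95 (SE 0.27, adjusted p = 0.033). The interaction was lost in 5 of 11 settings, the WT HFD pair as 1 sample among them, and without the first WT SD library (-0.73), the second KO SD library (-0.90), either WT HFD library (-1.07 and -0.83) or the second KO HFD library (adjusted p = 0.062).

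Per3 (ENSMUSG00000028957, chromosome 4, 151003652 to 151044665, minus strand) measured 1124 and 1371 normalized counts in WT SD, 590 and 982 in KO SD, 1937 and 2055 in WT HFD and 886 and 774 in KO HFD. On each diet both KO libraries lay below both WT libraries, and the 2 KO groups overlapped. Per3 was 2.41-fold lower in KO on HFD (log2 fold change -1.27, SE 0.22, adjusted p = 0.00084). On SD it differed by -0.70 (SE 0.22, adjusted p = 0.1), and without the second KO SD library this became -1.07 and was called. The rise with HFD in WT (0.68, SE 0.22, adjusted p = 0.045) was near the limit and was lost without any 1 of the 4 libraries compared, with values of 0.54 and 0.83 without the first and the second WT SD library and 0.73 and 0.64 without the first and the second WT HFD library. It was also lost in 7 of 12 other settings.

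Per1 (ENSMUSG00000020893, chromosome 11, 69095217 to 69109960, plus strand), which is also induced directly by hormones and by stress signals, measured 1943 and 1973 normalized counts in WT SD, 1408 and 1842 in KO SD, 2345 and 2554 in WT HFD and 1788 and 1933 in KO HFD. The WT HFD pair was again the highest, but no comparison was called. The difference between KO and WT on HFD was -0.40 (95% interval -0.75 to -0.05, adjusted p = 0.075), and it was -0.01 with each library scaled to the same total and -0.13 with quantile normalization. The diet difference in WT was 0.32 (-0.03 to 0.67) and changed sign, to -0.09, with each library scaled to the same total.

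The 2 cryptochrome genes, whose products bind and repress the CLOCK and BMAL1 pair, went in opposite directions. Cry1 (ENSMUSG00000020038, chromosome 10, 85131702 to 85185054, minus strand) measured 266 and 174 normalized counts in WT SD, 236 and 278 in KO SD, 201 and 198 in WT HFD and 372 and 375 in KO HFD, so the KO HFD pair lay above all others. Cry2 (ENSMUSG00000068742, chromosome 2, 92403646 to 92434043, minus strand) measured 1873 and 2060 in WT SD, 1194 and 1793 in KO SD, 2961 and 2940 in WT HFD and 1370 and 1069 in KO HFD, so the WT HFD pair lay above all others. On HFD, Cry1 was 1.87-fold higher in KO than in WT (log2 fold change 0.90, SE 0.25, adjusted p = 0.014) and Cry2 2.44-fold lower (-1.29, SE 0.20, adjusted p = 0.00035). Read as a ratio within each library, Cry1 over Cry2 was 0.272 and 0.351 in KO HFD, 0.0679 and 0.0673 in WT HFD, 0.198 and 0.155 in KO SD and 0.142 and 0.0845 in WT SD. Both KO libraries lay above both WT libraries on either diet. For Cry2 the diet difference in WT (0.59, SE 0.20, adjusted p = 0.053) and the interaction (-0.86, 95% interval -1.46 to -0.26) were not called. With each library scaled to the same total they were 0.17 and -0.43, and with quantile normalization 0.32 and -0.58, while 3 other settings called the interaction. The Cry1 call was lost with the WT HFD pair as 1 sample and without the first or second WT HFD library (0.91 and 0.89) or the second KO HFD library (0.90).

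Nr1d1 (ENSMUSG00000020889, chromosome 11, 98767932 to 98775333, minus strand), the repressor of Arntl, Clock and Npas2, measured 6024 and 5181 normalized counts in WT SD, 3249 and 4137 in KO SD, 4773 and 4728 in WT HFD and 3618 and 2578 in KO HFD. All 4 KO libraries lay below all 4 WT libraries. The difference between KO and WT was -0.64 on HFD (SE 0.19, adjusted p = 0.018, 1.56-fold) and -0.61 on SD (SE 0.19, adjusted p = 0.094, and called at -0.65 with each library scaled to the same total), and the interaction of -0.03 had a 95% interval of -0.60 to 0.54 and became 0.40 with each library scaled to the same total. The call on HFD was lost in 5 of 12 settings and without the first or second WT HFD library (-0.63 and -0.64) or the second KO HFD library (-0.39). Of its exon bases, 8.55% are shared with Thra on the opposite strand, and the sources do not say whether counting used strand. Thra measured 3062 and 3197 normalized counts in WT SD, 2190 and 2577 in KO SD, 2804 and 2793 in WT HFD and 1774 and 1699 in KO HFD. All 4 KO libraries lay below all 4 WT libraries for Thra as for Nr1d1. Reads that overlapped several genes were left out of the counts, so no read was counted for both genes.

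Dbp (ENSMUSG00000059824, chromosome 7, 45705088 to 45710203, plus strand), the output factor, was the 1 clock gene called between diets in both genotypes. It measured 207 and 244 normalized counts in WT SD, 152 and 183 in KO SD, 730 and 647 in WT HFD and 589 and 413 in KO HFD. All 4 HFD libraries lay above all 4 SD libraries. Dbp was 3.05-fold higher on HFD in WT (log2 fold change 1.61, SE 0.23, adjusted p = 0.0011) and 2.95-fold higher in KO (1.56, SE 0.23, adjusted p = 0.011). The 2 diet effects differed by -0.05 (95% interval -0.76 to 0.66, adjusted p = 0.93), which became 0.38 with each library scaled to the same total. The call in KO was lost in 4 of 12 settings and without the second KO SD library (1.69, adjusted p = 0.054). Between KO and WT on HFD the difference of -0.48 (SE 0.23, adjusted p = 0.13) was not called, but without the first KO HFD library it was (-0.73), and with each library scaled to the same total it was -0.09. Dbp shares 18% of its exon bases with Sphk2 on the opposite strand, which measured between 255 and 326 normalized counts in all 8 libraries.

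Arntl and Dbp, which peak at opposite times in a running clock, gave a ratio within each library that does not depend on the scaling between libraries. Arntl over Dbp was 3.95 and 2.06 in WT SD, 3.74 and 2.74 in KO SD, 0.244 and 0.275 in WT HFD and 0.584 and 0.966 in KO HFD. The 2 SD groups overlapped. All 4 HFD libraries lay below all SD libraries, and the KO HFD pair lay above the WT HFD pair. This ratio was not tested, and with 2 libraries a group an exact two-sided permutation test cannot give a p below 0.333.

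**Figure D3:**
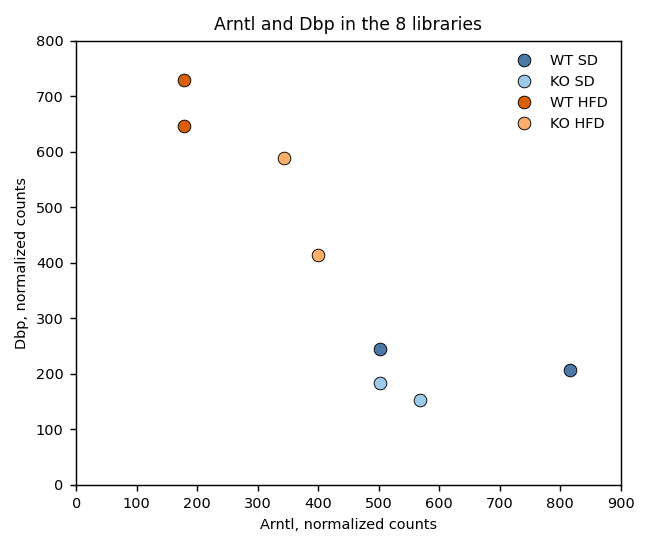
Normalized counts of Dbp (vertical axis) against Arntl (horizontal axis) in the 8 libraries, coloured by group. The SD libraries of both genotypes sit at the lower right, the WT HFD libraries at the upper left, and the KO HFD libraries between them.

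By counts of separated groups, both libraries of 1 group lay above both of the other for 10 of the 10 clock genes between KO and WT on HFD (69.6% of all genes tested), 6 of 10 between KO and WT on SD (45.0%), 9 of 10 between HFD and SD in WT (65.0%) and 5 of 10 between HFD and SD in KO (42.0%). On SD all 6 separated genes were lower in KO. The median log2 fold change of the 10 genes between KO and WT was -0.56 on HFD, where the median of all genes was 0.09, and -0.33 on SD, where it was -0.01. Between HFD and SD it was 0.27 in WT (all genes -0.08) and 0.03 in KO (all genes 0.03).

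Of 18 other genes of the clock pathway, 17 passed the filter. Rorb measured between 0 and 10 normalized counts and was not tested. Between KO and WT on HFD, 2 of 17 were called, 1 higher and 1 lower, where 32.2% of all genes tested were. Ciart, a repressor of the CLOCK and BMAL1 pair, measured 53 and 43 normalized counts in WT HFD and 105 and 123 in KO HFD (log2 fold change 1.23, SE 0.42, adjusted p = 0.036). It measured 77 and 100 in WT SD and 72 and 37 in KO SD, and it was the 1 gene of the 17 with a called interaction (1.99, SE 0.59, adjusted p = 0.037). Tef, a relative of Dbp, measured 2311 and 2515 in WT HFD and 1528 and 1330 in KO HFD (-0.76, SE 0.19, adjusted p = 0.008).

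Between HFD and SD in WT, 3 of the 17 were called, 2 higher and 1 lower, a share near the 18.0% of all genes tested. Tef, at 1343 and 1815 normalized counts on SD, was higher on HFD (log2 fold change 0.63, SE 0.19, adjusted p = 0.035), the direction of Dbp. Bhlhe41, which encodes the E-box repressor DEC2, rose from 220 and 134 to 362 and 370 (1.09, SE 0.27, adjusted p = 0.015), while Bhlhe40, which encodes its relative DEC1, fell from 6976 and 4518 to 3177 and 3216 (-0.81, SE 0.19, adjusted p = 0.013). Between HFD and SD in KO and between KO and WT on SD, 0 of 17 were called by limma (1.07% and 4.71% of all genes), while 4 and 4 had an unadjusted p under 0.05. With the WT HFD pair as 1 sample the calls of Ciart (log2 fold change 1.23) and Tef (-0.76) for KO against WT on HFD were lost. So were those of Tef (0.63), Bhlhe41 (1.09) and Bhlhe40 (-0.81) for HFD against SD in WT and of the Ciart interaction (1.98). These log2 fold changes were the same as with all 8 libraries or close to them.

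Nr1d2 and Rora of the second loop and Hlf and Nfil3 of the output arm were called in no comparison. Nr1d2 measured between 1601 and 2330 normalized counts in all 8 libraries, with a difference between KO and WT on HFD of -0.19 (95% interval -0.50 to 0.12). Rora measured between 1823 and 2685, with -0.29 (-0.65 to 0.06). Hlf (-0.83, -1.63 to -0.02) and Nfil3, the repressor at D-boxes (-0.53, -0.99 to -0.07), were not called between KO and WT on HFD. The 5 genes listed for turnover of PER and CRY proteins (Csnk1d, Csnk1e, Fbxl21, Btrc and Fbxw11) were called in no comparison.

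**Figure D4:**
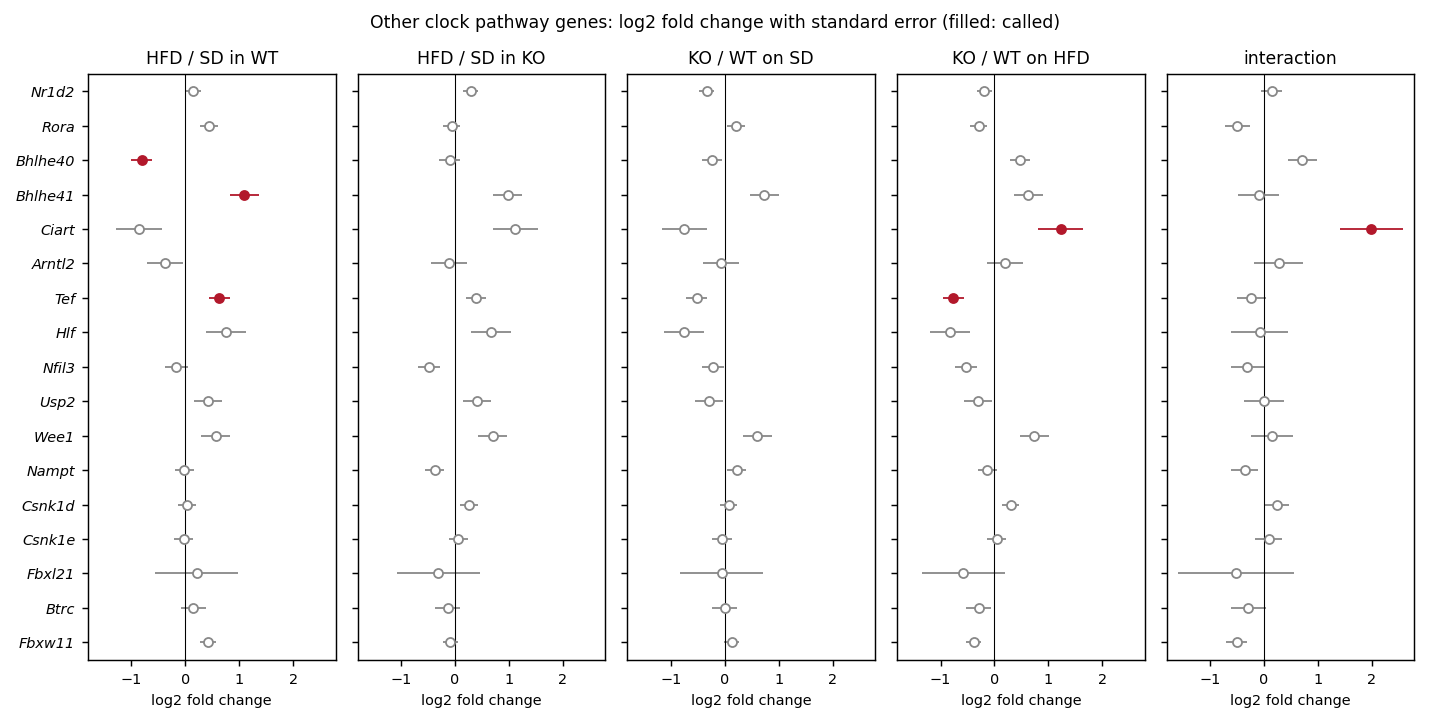
Log2 fold changes (horizontal axes) of the 17 tested other genes of the clock pathway (rows) in 4 comparisons and in the interaction of genotype and diet, with standard errors as bars; filled points passed both limits of the call. Bhlhe40, Bhlhe41 and Tef are filled for HFD against SD in WT, Ciart and Tef for KO against WT on HFD, and Ciart for the interaction.

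The genes most like Arntl over the 8 libraries, compared with the 12092 other genes that averaged 50 or more, were Sbno2 (Pearson r of log2 values 0.989), Ppnr (0.985), Sfi1 (0.981), Zfp36l1 (0.980) and Arid5a (0.978). Those most opposite to it were Hdac9 (-0.989), Dennd5a (-0.986), Snapin (-0.982), Gramd3 (-0.982) and Stat6 (-0.980). Within the clock pathway, r with Arntl was 0.920 for Bhlhe40, 0.868 for Npas2, -0.879 for Fbxw11 and -0.934 for Per2. Among the other clock genes it was 0.251 for Cry1, 0.032 for Nr1d1, -0.276 for Clock, -0.582 for Cry2, -0.667 for Per3, -0.710 for Per1 and -0.877 for Dbp. For Dbp the highest were Extl2 (0.957), Kctd9 (0.952), Mapkbp1 (0.948), Vac14 (0.945) and Dcaf13 (0.939), and the lowest 2610011E03Rik (-0.972), Hs3st3b1 (-0.963), Gm42993 (-0.961), Sept6 (-0.958) and Fgfr2 (-0.947). The 8 points come from 4 groups and share the groups' other differences, so these values describe likeness and carry no test.

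Markers of cell types were read from the same libraries, because in RNA from many cells fewer cells of a type and less RNA per cell cannot be told apart. Between KO and WT on HFD, where 32.2% of all genes were called, 9 of 10 adipocyte markers were lower, and their summed level was 98997 and 184632 normalized counts in KO HFD against 385828 and 393950 in WT HFD. All 9 macrophage markers were higher there, with sums of 28438 to 31009 in KO HFD and 2070 to 2104 in WT HFD, and 3 of 5 fibroblast and progenitor markers were higher. Of 5 endothelial markers 2 were higher, with sums of 17525 and 27238 against 13147 and 13756. Of 2 tested lymphocyte markers, Cd79a was 5.55-fold higher (log2 fold change 2.47, adjusted p = 0.0051), and 1 of 4 mesothelial markers was lower. On SD, where 4.71% of all genes were called, 9 of 9 macrophage markers were higher in KO (15889 to 29024 against 4542 and 4562), and 0 of 10 adipocyte markers were called (256403 to 335851 against 299039 to 316627). Lymphocyte markers were near 0, with sums of 9 to 78 normalized counts, and Cd3e, Cd3g and Ms4a1 were at 0 in at least 1 library. The part of these differences in the clock genes' values was not tested.

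HFD against SD in WT, where 18.0% of all genes were called, went with other differences too. Macrophage markers fell (8 of 9), 3 of 5 endothelial markers fell, and 2 of 10 adipocyte markers rose and 1 fell. Of 5 fibroblast and progenitor markers 2 fell, with sums of 11962 and 13744 on SD and 7925 and 8177 on HFD, and 1 of 2 tested lymphocyte markers, Cd79a, fell. Between HFD and SD in KO, where 1.07% of all genes were called, 1 of 10 adipocyte markers fell, and 1 of 9 macrophage markers and 2 of 5 fibroblast and progenitor markers rose. An unadjusted p under 0.05 was reached there by 9 of 10 adipocyte and 7 of 9 macrophage markers. The 7 immediate-early genes, which respond within minutes to handling or stimulation, all fell, from sums of 159910 and 179212 normalized counts in WT SD to 92440 and 92842 in WT HFD. They were also all lower in KO than in WT on SD (77080 and 77790), while on HFD 1 was higher and 2 were lower in KO (75101 and 79318). Of 7 genes induced by glucocorticoids, hormones whose level follows the time of day, 1 rose and 2 fell with HFD in WT. Between KO and WT on HFD 2 were higher and 3 lower, and on SD 0 of 7 were called. The part of these differences was not tested either. The markers also moved in the interaction of genotype and diet (17.4% of all genes), in which 9 of 10 adipocyte markers were negative and 9 of 9 macrophage, 5 of 5 endothelial and 4 of 5 fibroblast and progenitor markers positive. Of the immediate-early genes 4 of 7 were positive in it, and of the glucocorticoid-induced genes 2 were positive and 3 negative of 7.

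**Figure D5:**
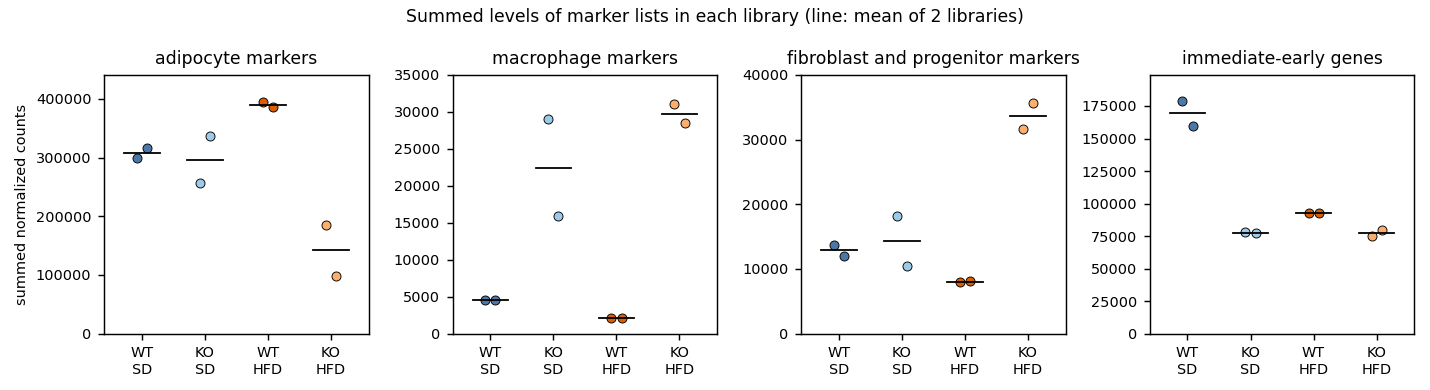
Summed normalized counts (vertical axes, from 0) of 4 gene lists in each of the 8 libraries (points), by group, with the mean of 2 libraries as a line. In KO HFD the adipocyte sum is the lowest and the macrophage and fibroblast sums are high, and the immediate-early sum is highest in WT SD.

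The number of called interactions moved with the libraries used. Counts of clock genes with a called interaction were 0 without the first WT SD library, 3 without the second, 6 without the first KO SD library, 1 without the second, 1 without either WT HFD library, 5 without the first KO HFD library and 1 without the second. With the WT HFD pair as 1 sample the count was 1 (Npas2). For KO against WT on HFD the count was 6 with that pair as 1 sample, and for HFD against SD in WT it was 4. Scaling each library to the same total moved the median of all genes from 0.09 to 0.48 for KO against WT on HFD and from -0.08 to -0.48 for HFD against SD in WT, and 6 and 5 of the 10 clock genes were then called. Of all genes, 4622 were then higher and 1365 lower for KO against WT on HFD, and 469 higher and 3569 lower for HFD against SD in WT. Clock (-0.38) and Nr1d1 (-0.25) lost their calls for KO against WT on HFD, and for HFD against SD in WT Nr1d1 (-0.65) was called and Per3 (0.27) was not.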

How the data were processed

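White adipocyte RNA was depleted of ribosomal RNA and made into stranded libraries (SMARTer kit, single-end reads). Per the submitters' processing notes and the study's methods, reads were trimmed with Reaper, aligned to GRCm38 (mm10) with STAR 2.5.2b and counted per gene with featureCounts 1.5.1, leaving out reads that overlapped several genes. Whether counting used strand is not given in the sources used here. The authors deposited 1 table of scores, whole numbers made by scaling each library's gene counts with its size factor (DESeq2 1.14.1) and rounding, called normalized counts here. Because these are no longer counts, limma 3.58.1 (R 4.3.3) was fitted to log2(value + 1), with a trended prior, for the 18800 genes that averaged 5 or more, with 1 mean per group and all 8 libraries sharing 1 estimate of the spread. A log2 fold change is thus on the log2(value + 1) scale, and for low genes its size depends on the added 1. The limits for a call (adjusted p of at most 0.05, log2 fold change of at least 0.59) are those of the study's methods. The fit was tested on simulated data first. Reads per library were recovered from the spacing of low values, and tables were handled with Python 3.11.15, pandas 2.3.3 and scipy 1.17.1.

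The samples are separate mice. Each p-value rests on a spread between mice that was pooled over the 4 groups and moderated across genes (4 residual and 8.59 prior degrees of freedom). It does not measure the spread between the 2 mice of a single group. The clock genes, the pathway and marker lists and the tests were chosen with earlier results of these data known. Named genes were the 10 clock genes, the other pathway genes called in any comparison, Nr1d2, Tef, Hlf, Nfil3, Ciart, Bhlhe40, Bhlhe41 and Rora, the targeted genes, and the 5 genes most and least like Arntl and Dbp. Rorb, the turnover genes, Sphk2, Thra and the lymphocyte markers at 0 were named after their values were seen. A few genes of the lists are not reported here. Exon positions are from GENCODE vM21. Motifs were searched in RefSeq promoter windows of 250 bases on both strands. Alternatives covered limits, pseudocount, filter, scaling, moderation, replicate block, groups in the fit, the WT HFD pair as 1 sample and leaving out each library.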

Additional observations from a re-analysis of the deposited data

Results flagged for a closer look

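The diet effect differed between the genotypes by the test of the interaction for 4 of the 10 clock genes. For Npas2 the interaction was 4.50 on the log2 scale, with a diet difference of -4.55 in WT and -0.05 in KO. For Arntl it was 1.32, with -1.84 in WT and -0.53 in KO. For Clock it was -0.71, with 0.21 in WT and -0.50 in KO, and for Per2 it was -0.95, with 1.61 in WT and 0.66 in KO. With the WT HFD pair as 1 sample the interaction was called for Npas2 and no longer for Arntl, Clock and Per2, and none of the 4 was called without a filter on low values. Over the 11 settings, these 2 among them, the interaction ranged from 1.28 to 1.74 for Arntl, -0.71 to -0.28 for Clock and -0.96 to -0.52 for Per2. In the same interaction 9 of 10 adipocyte markers were negative, and 9 of 9 macrophage, 5 of 5 endothelial and 4 of 5 fibroblast and progenitor markers positive. Of 7 immediate-early genes 4 were positive, and of 7 glucocorticoid-induced genes 2 were positive and 3 negative. The part of these lists in the clock genes' values was not tested. The interaction was called for 17.4% of all genes tested, and no group was large enough to look for single deviating libraries.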

How the results depend on the processing

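Of 830 values of single clock genes under other settings, 728 kept their direction and their side of the limits, 63 lost a call, 10 gained one and 29 changed sign; none of those that changed sign was called in either setting. The counts of called clock genes for KO against WT on HFD (6 to 9) and for HFD against SD in WT (4 to 5) stayed within 1.5 times the reported counts in every setting run. For KO against WT on SD the count was 1 (Nr1d1) with each library scaled to the same total, and 0 to 1 when libraries were left out. For HFD against SD in KO it was 0 with an adjusted p of at most 0.01, with no filter, with only the 2 groups compared and with the WT HFD pair as 1 sample, and 0 to 1 when libraries were left out. The count of interactions was 1 with an adjusted p of at most 0.01, 0 with no filter, 2 with the same total, 2 with quantile normalization, 1 with the WT HFD pair as 1 sample, and 0 to 6 when libraries were left out. Leaving out a library left 1 mouse in its group, which was then assumed to vary like the others. Cause was not tested for any of these.

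Signs changed for values near 0. With the same total, Npas2 for KO against WT on SD was 0.00 (-0.01 with the upper quartile), and for HFD against SD in WT Clock was -0.20 (-0.06 with quantile normalization) and Per1 -0.09. The interactions of Per1, Nr1d1 and Dbp were 0.31, 0.40 and 0.38 with the same total and 0.21, 0.25 and 0.11 with quantile normalization. When libraries were left out, KO against WT on SD ranged from -0.61 to 0.09 for Arntl, -0.18 to 0.07 for Clock, -0.15 to 0.24 for Npas2 and -0.05 to 0.56 for Cry1. HFD against SD ranged from -0.41 to 0.20 for Cry1 in WT and, in KO, from -0.19 to 0.08 for Npas2, -0.25 to 0.49 for Per3 and -0.57 to 0.02 for Cry2. The interaction ranged from -0.31 to 0.08 for Per1, -0.27 to 0.21 for Nr1d1 and -0.31 to 0.21 for Dbp.

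With the replicate number as a block, 8, 0, 4, 1 and 3 clock genes were called for KO against WT on HFD, KO against WT on SD, HFD against SD in WT, HFD against SD in KO and the interaction, so the block ended the calls of Per3 for HFD against SD in WT and of Clock for the interaction. Deviations of same-numbered libraries from their group means correlated at -0.3 to 0.11, so no strong shared effect of the replicate number was seen. Whether the numbers pair the mice in another way is not given in the labels. With 2 mice a group, small differences were not detectable.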
